A study of Rattus norvegicus with 12 samples.

Results

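The fibroblast growth factors (FGFs), the transforming growth factor beta (TGF-beta) superfamily with its bone morphogenetic proteins (BMPs), growth and differentiation factors (GDFs) and activins, and the insulin-like growth factor (IGF) binding proteins were followed across rat kidney development. The members were all genes whose single symbol in the array annotation begins with Fgf, Fgfr, Bmp, Gdf, Tgfb or Igfbp and then a digit, or with Bmpr, Tgfbr, Inhb, Inha or Acvr, together with Fst, Nog, Grem1 and Nbl1. That gave 72 genes of the 14217 genes with a single symbol, each read from the probe set with the highest mean signal over the 12 arrays. Total RNA was hybridised to Affymetrix rat arrays. The kidney groups were taken at embryonic day 13 (E13, 3 arrays), at embryonic day 18 (E18, 4 arrays) and at 4 weeks after birth (Wk4, 3 arrays). The fourth group was recombined tissue (2 arrays), in which UBs that had been formed in vitro and had not branched were put together with MM and cultured for 6 days. In kidney work these letters stand for the ureteric bud, from whose branches the collecting ducts arise, and the metanephric mesenchyme, the source of the nephrons. The study asked whether the recombined tissue follows the pathways of normal development. The labels give no strain, age of the source tissue for the culture, pooling or genotype, and do not say whether the arrays of a group came from separate animals or cultures, so the p-values below measure only the spread between these arrays.

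FGFs bind tyrosine kinase receptors (Fgfr1 to Fgfr4) on neighbouring cells, and in the kidney they keep nephron progenitors alive and drive branching of the bud. Ligands of the TGF-beta superfamily bind pairs of serine/threonine kinase receptors that phosphorylate SMAD transcription factors, and secreted antagonists such as noggin, gremlin and follistatin hold the ligands away from those receptors. BMP7 maintains nephron progenitors, BMP4 restrains budding of the ureter, and activin A slows bud branching. The IGF-binding proteins carry IGF1 and IGF2 outside the cell and set how much of each reaches its receptor.

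The deposited values are linear signals, which the authors' scaling had set to a trimmed mean of 2500 on each array. Levels below are these signals, and they are compared between arrays for the same gene and never between genes. Differences are on the scale log2(signal + 271), which draws in the differences of dim genes, and are given with their standard error (SE) from a limma model of all 12 arrays and the limma adjusted p (Benjamini-Hochberg over 22599 probe sets). A member was called in a comparison where that p was under 0.05 and the change at least 3-fold, the limit that the study set between any of its 4 conditions. Calls lost with 4 times the added 271, or with the replicate number as a block in the fit, are given only at the end. A call with no loss named beside it can be one of these. Of the 72 members, 55 lay above the 40th percentile of their array on at least 2 arrays and were tested, and 33 of them did so on all 12. The 40th percentile was between 503 and 671 on the 12 arrays. Signals below it are described here as dim. A member that is bright in 1 group only passes this filter through that group, so counts over the tested members say nothing of how often the families change. Of the 55, 5 passed through 1 group alone: Gdf10 and Inhbb through recombined tissue, Acvr1c and Fgf16 through Wk4 and Fgf14 through E13. Their levels are given as a description with no test, and they are among the counts of tested and called members only because the fit ran over all probe sets.

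Array medians ran from 799 to 1020. Over all tested probe sets, the deviation of E13 replicate 1 from its group mean correlated at 0.25 to 0.31 with those of E18 replicates 1 to 3 and at -0.60 with that of E18 replicate 4. E13 replicates 2 and 3 correlated with E18 replicate 4 at 0.41 and 0.38. The embryonic arrays therefore fell into a pair of sets, E13 replicate 1 with E18 replicates 1 to 3, and E13 replicates 2 and 3 with E18 replicate 4, and E18 against E13 is also given within each set. The labels do not say what the sets are. Of 11 kidney identity genes, 10 were above the 40th percentile on at least 1 recombined array, which is a low bar. Their summed signal was 61377 to 79068 at E13, 85495 to 110884 at E18, 72561 to 81059 at Wk4 and 40305 to 65732 in recombined tissue. Against E18, 4 of the 11 were called lower in recombined tissue and 0 higher, beside 1.67% and 2.73% of all probe sets. In that comparison 5 of 12 ureteric bud genes and 1 of 8 tested nephron progenitor genes were lower, and 0 higher. Against E13, 1 of the 11 kidney identity genes, 0 of the 12 bud genes and 2 of the 8 progenitor genes were lower. In each list 0 were higher there, beside 0.912% lower and 3.95% higher over all probe sets. Against Wk4, in the same order, 2, 2 and 4 were higher and 2, 4 and 1 lower, beside 7.88% and 7.32%. Marker lists of other cell types moved strongly with the recombined group. All 16 tested macrophage genes were called higher against E13, beside 3.95% of all probe sets. Of the 18 listed, 6 were dim on all E13 arrays, so some may have passed the filter only through groups where they were bright. The summed signal of the 18 was 11004 to 13859 at E13, 30715 to 36637 at E18, 61461 to 68106 at Wk4 and 196146 to 367709 in recombined tissue, with 1 of them dim on both recombined arrays and none at 0. Of 22 matrix and myofibroblast genes, 16 were called higher against E13, beside the same 3.95%. Their summed signals were 250537 to 329806 at E13, 406504 to 498150 at E18, 181189 to 247017 at Wk4 and 1151710 to 1196780 in recombined tissue, none dim on both recombined arrays. Of 17 tested endothelial genes, 6 were called lower and 1 higher than at E13, beside 0.912% and 3.95% of all probe sets. The part of these cell types in the recombined values below was not tested. In such bulk RNA, fewer cells of a type and less RNA per cell cannot be told apart.

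Promoter sequences are shown for 5 members, chosen because the signal of the first differed most between recombined and kidney tissue and because the other 4 form 2 pairs of genes that sit next to each other on a chromosome and did not follow each other. Each is the 250 bases before the annotated start, 5′ to 3′ on the gene's strand, from RefSeq on GRCr8. Capitals mark TATAAA (the TATA box), CCAAT (the CCAAT box), TGANTCA (an AP-1 site) and CACGTG (an E-box), searched on both strands, so that ATTGG is a CCAAT box on the other strand. The motifs do not overlap here.

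Inhba, chr17:53804509-53804758 (minus strand): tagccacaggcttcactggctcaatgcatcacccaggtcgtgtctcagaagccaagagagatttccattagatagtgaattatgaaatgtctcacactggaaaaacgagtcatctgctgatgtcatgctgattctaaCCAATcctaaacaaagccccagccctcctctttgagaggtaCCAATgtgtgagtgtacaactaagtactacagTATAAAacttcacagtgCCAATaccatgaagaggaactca

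Igfbp1, chr14:86261027-86261276 (plus strand): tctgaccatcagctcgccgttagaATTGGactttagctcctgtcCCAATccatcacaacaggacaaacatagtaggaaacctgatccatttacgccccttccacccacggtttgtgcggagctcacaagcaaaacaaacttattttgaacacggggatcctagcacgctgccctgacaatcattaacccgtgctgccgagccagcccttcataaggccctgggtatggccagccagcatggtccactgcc

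Igfbp3, chr14:86277945-86278194 (minus strand): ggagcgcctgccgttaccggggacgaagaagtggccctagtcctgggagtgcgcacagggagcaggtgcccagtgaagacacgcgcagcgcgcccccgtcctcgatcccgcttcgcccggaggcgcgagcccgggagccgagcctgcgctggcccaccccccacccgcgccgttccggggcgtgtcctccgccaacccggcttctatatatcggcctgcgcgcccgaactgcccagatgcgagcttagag

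Igfbp2, chr9:81864561-81864810 (plus strand): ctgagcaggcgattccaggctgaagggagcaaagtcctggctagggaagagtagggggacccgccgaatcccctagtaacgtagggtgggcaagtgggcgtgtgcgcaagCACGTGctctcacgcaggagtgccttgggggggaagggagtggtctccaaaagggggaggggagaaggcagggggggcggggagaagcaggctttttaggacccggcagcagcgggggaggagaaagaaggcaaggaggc

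Igfbp5, chr9:81914188-81914437 (minus strand): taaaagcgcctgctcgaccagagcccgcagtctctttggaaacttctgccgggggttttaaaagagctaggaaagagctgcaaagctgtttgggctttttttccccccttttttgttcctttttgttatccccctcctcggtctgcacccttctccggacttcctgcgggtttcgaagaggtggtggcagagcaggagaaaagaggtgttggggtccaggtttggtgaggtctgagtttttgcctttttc

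The window of Inhba held 1 TATA box, at bases 40 to 35 before the start, and 3 CCAAT boxes, with 2 CpG pairs. That of Igfbp1 held 2 CCAAT boxes and 9 CpG pairs, whereas that of its neighbour Igfbp3 held none of the 4 motifs and 31 CpG pairs. The Igfbp2 window held 1 E-box and 11 CpG pairs, and that of its neighbour Igfbp5 none of the motifs and 8 CpG pairs. RefSeq windows were matched for 60 of the 72 members (64 windows). A TATA box was in 14.1% of the member windows against 12.9% of all 33469 windows, a CCAAT box in 35.9% against 34.0%, an AP-1 site in 3.12% against 6.34% and an E-box in 10.9% against 5.59%. The median window of the members held 13 CpG pairs and that of all genes 5. These matches describe the letters only.

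Between any of the 4 groups, 29 of the 55 tested members were called by the limma F-test, beside 24.6% of all probe sets tested. Their highest group mean was in recombined tissue for 11, at Wk4 for 8, at E18 for 6 and at E13 for 4. The same split was not made over all probe sets, so it describes these 29 only and shows no leaning of the families. It includes Gdf10 and Inhbb (recombined) and Acvr1c (Wk4), which passed the filter through those groups alone. From E13 to E18, 3 members were called higher and 1 lower, beside 1.93% and 0.407% of all probe sets (2.34% in all). From E18 to Wk4, 6 were higher and 4 lower, beside 5.76% and 5.43% (11.2% in all). Wk4 against E13 gave 7 higher and 7 lower, beside 9.39% and 8.46% (17.9% in all). Recombined tissue against E13 gave 11 higher and 1 lower, beside 3.95% and 0.912% (4.86% in all). Against E18 it gave 6 higher and 3 lower, beside 2.73% and 1.67% (4.40% in all), and against Wk4 9 higher and 9 lower, beside 7.88% and 7.32% (15.2% in all). The median difference of the tested members was 0.20 from E13 to E18 (all tested probe sets: -0.02), -0.05 from E18 to Wk4 (all: -0.12), 0.36 for recombined tissue against E13 (all: 0.00) and 0.45 against Wk4 (all: 0.19). The comparisons share groups and are not independent of each other. For no called member did the arrays of the 2 groups overlap. Among the called members were 3 that passed the filter through 1 group alone (Gdf10, Inhbb and Acvr1c). Without them 26 of 50 were called between any groups, and recombined tissue had 9 higher and 1 lower against E13, 5 higher and 3 lower against E18 and 7 higher and 8 lower against Wk4.

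**Figure D1:**
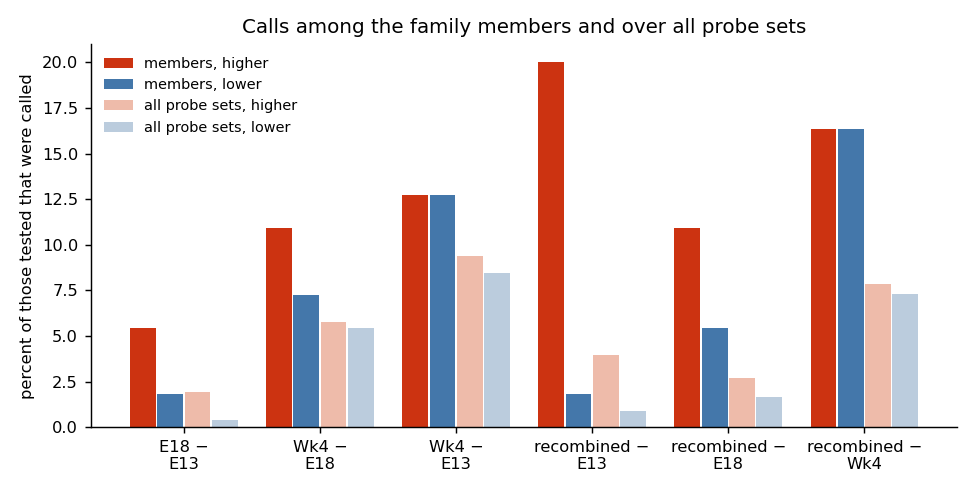
Percent of tested members (dark bars) and of all tested probe sets (pale bars) called higher or lower in each of the 6 comparisons, with bars from 0. Recombined tissue against E13 has 11 of 55 members higher, beside 3.95% of all probe sets, and 1 lower.

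**Figure D2:**
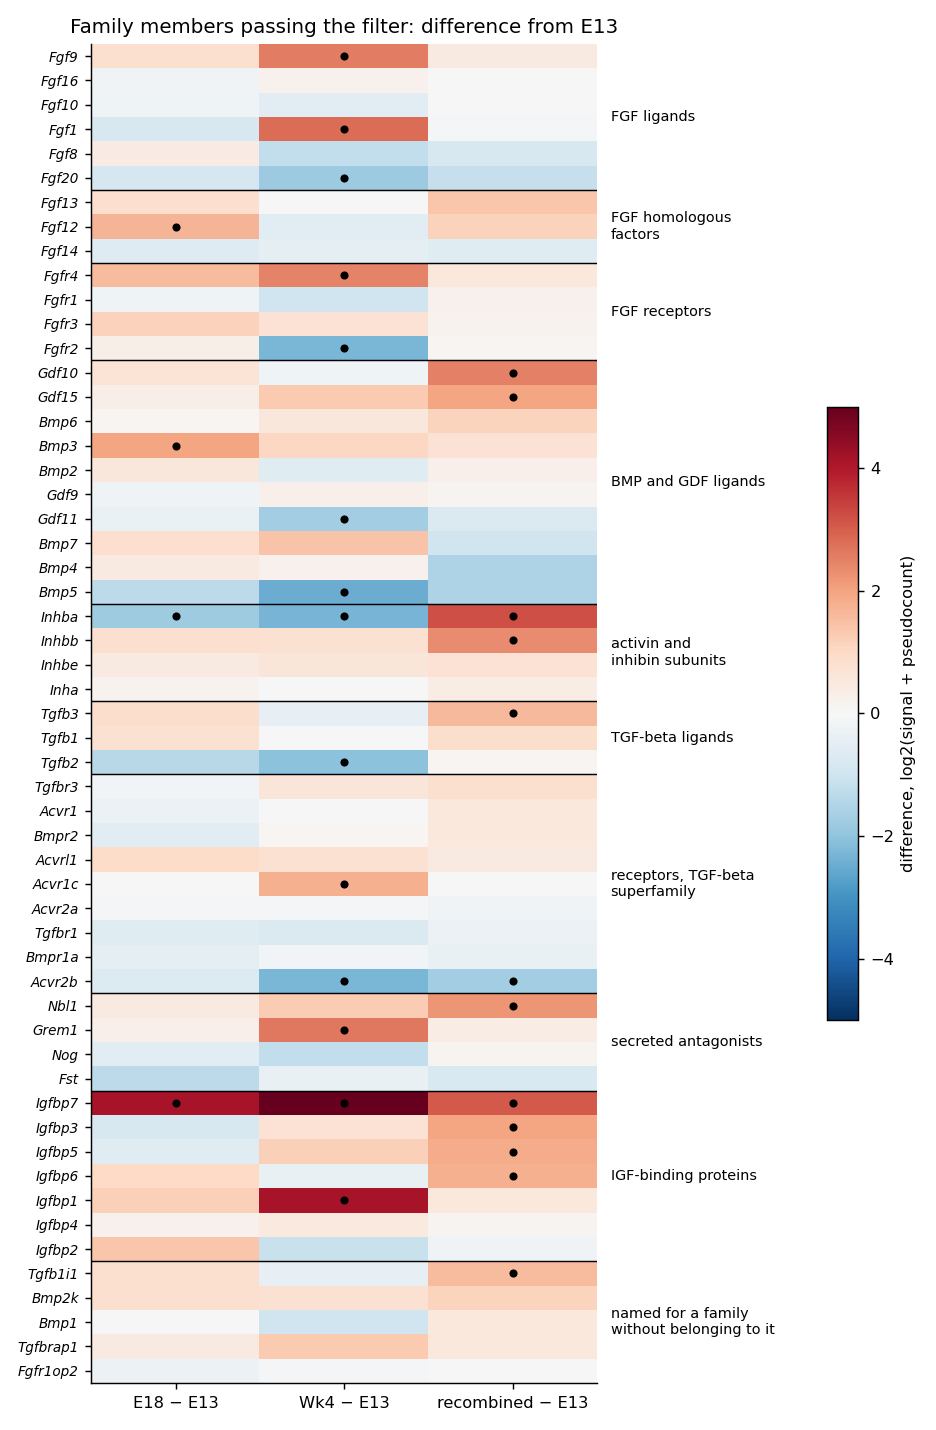
Difference of E18, Wk4 and recombined tissue from E13 for the 55 tested members, on the scale log2(signal + 271), grouped by role and sorted within each role by the recombined value. Red is higher and blue lower than E13, and black dots mark calls, which for recombined tissue are 11 higher and 1 lower.

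Among the FGF ligands, Fgf1 and Fgf9 were highest in the 4-week kidney, and Fgf8 and Fgf20 in the embryonic kidney. Only 6 of the 18 ligands passed the filter, and 4 of them were called between some groups, beside 24.6% of all probe sets. Fgf1, which encodes an FGF that binds all the receptors, read 760.3, 839 and 567 at E13, 213, 469.6, 311 and 219 at E18, 6532, 6699.5 and 6553 at Wk4 and 763 and 553 in recombined tissue. The 3 Wk4 arrays stood alone and the other 9 were at or near the dim range. The rise from E18 to Wk4 was 3.60 ± 0.18 (SE, adjusted p = 8.03e-10), a size that depends on the added 271 because all 4 E18 arrays were dim, and recombined tissue was below Wk4 by -2.90 ± 0.22 (SE, adjusted p = 5.75e-08). Its other 2 probe sets also rose from E18 to Wk4, by 1.58 and 2.27. Fgf9, a ligand that keeps nephron progenitors undifferentiated in the embryo, had the same highest group: 866, 743 and 770.5 at E13, 1374, 1848, 1639.7 and 1479 at E18, 5929, 5138 and 7134 at Wk4 and 918 and 1482 in recombined tissue. All E18 arrays were above all E13 arrays and below all Wk4 arrays, and the recombined arrays lay within the embryonic range. The step from E18 to Wk4 was 1.77 ± 0.17 (SE, adjusted p = 4.93e-07), that from E13 to Wk4 2.56 ± 0.18 (SE, adjusted p = 1.33e-08), and recombined tissue was -2.12 ± 0.20 (SE, adjusted p = 5.67e-07) from Wk4.

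Fgf8 and Fgf20, ligands of the embryonic nephron lineage, ran the other way. Fgf8, needed for survival of the first nephron cells, read 591, 873 and 425 at E13, 957, 926, 976 and 788 at E18, 292, 56.3 and 9.96 at Wk4 and 87.4 and 452 in recombined tissue. All 4 E18 arrays were above every Wk4 and recombined array, and both of these groups were dim. The fall from E18 to Wk4 was called (-1.66 ± 0.29 SE, adjusted p = 0.000194), but not without Wk4 replicate 2 (-1.57) or replicate 3 (-1.46), both just short of 3-fold. The difference of Wk4 from E13 was -1.24 ± 0.31 (SE, adjusted p = 0.00287) and that of recombined tissue from E18 -1.21 ± 0.33 (SE, adjusted p = 0.0127), neither called, and the latter was called without recombined replicate 2 (-1.72). E18 was 0.42 ± 0.29 from E13 (adjusted p = 0.354). Recombined tissue was -0.79 ± 0.35 from E13 (adjusted p = 0.0995) and 0.45 ± 0.35 from Wk4 (adjusted p = 0.293), with overlapping arrays in all 3 of these comparisons. Fgf20, which acts beside Fgf9 on nephron progenitors, read 783, 805 and 1034 at E13, 78.1, 747, 510.2 and 346 at E18, 41.5, 84.7 and 31.5 at Wk4 and 103 and 412 in recombined tissue. The E13 arrays were above all others, the E18 arrays spread over nearly the whole range, and Wk4 was -1.82 ± 0.35 (SE, adjusted p = 0.000342) from E13. Fgf10, the mesenchymal ligand for the bud receptor, stayed between 172 and 714 on all 12 arrays, and Fgf16 between 312 and 786, with no call for either.

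The FGF homologous factors share the FGF fold but stay inside the cell and bind sodium channels. Of 3 tested, Fgf12 was called between some groups, beside 24.6% of all probe sets, and 3 genes give no result about the role. It read 272, 516 and 446 at E13, 1585, 1999.9, 2040.1 and 2004 at E18, 118, 360.2 and 144 at Wk4 and 1102 and 1342 in recombined tissue, so that the 4 E18 arrays were above all others and both recombined arrays were above all E13 and Wk4 arrays. It rose from E13 to E18 by 1.69 ± 0.21 (SE, adjusted p = 4.16e-05), a call lost without E13 replicate 1 (1.53), under quantile normalization (1.58) and with the mean over its probe sets (1.08), and fell from E18 to Wk4 (-2.22 ± 0.21 SE, adjusted p = 4.27e-07), lost with the mean over probe sets (-1.51). Its other 2 probe sets gave -1.06 and -1.26 from E18 to Wk4. Recombined tissue was 1.67 ± 0.25 (SE, adjusted p = 5.06e-05) from Wk4, a call lost without Wk4 replicate 1 (1.54) or recombined replicate 2 (1.56), under quantile normalization (1.55), with median centring (1.51) and with the mean over probe sets (1.33). Fgf13, not called, read 2021, 2038 and 2167 at E13, 4016, 3359, 3923 and 4341 at E18, 2268, 1799 and 2194 at Wk4 and 8276 and 4132 in recombined tissue. The lower of the recombined arrays lay within the E18 range and the higher far above it.

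All 4 FGF receptors were well above the dim range in at least 1 group, and each had its own course. Fgfr2, which in the bud drives branching, read 10629.5, 10364 and 9316 at E13, 13012, 11412, 12616 and 13307 at E18, 1694, 1910.2 and 1975 at Wk4 and 11414 and 10233 in recombined tissue. The 3 Wk4 arrays lay far below the other 9, and the recombined arrays were among the embryonic ones. The fall from E18 to Wk4 was -2.59 ± 0.10 (SE, adjusted p = 1.02e-10), and recombined tissue was 2.38 ± 0.13 (SE, adjusted p = 1.18e-09) from Wk4. Only the probe set shown changed to this extent. The other 3 tested probe sets of Fgfr2 changed from E18 to Wk4 by -0.56, -0.41 and 0.01, none called, and with the mean over probe sets the fall was -0.89. Which transcripts each probe set reads is not known from the files.

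Fgfr4 rose as the kidney matured. It read 544, 423 and 380.2 at E13, 2153, 1692, 2306 and 1471 at E18, 3531, 3716 and 3900.1 at Wk4 and 517 and 1058 in recombined tissue, with no overlap between the 3 kidney stages. Wk4 was 2.47 ± 0.21 (SE, adjusted p = 1.03e-07) from E13. The step from E13 to E18, 1.58 ± 0.20 (SE, adjusted p = 4.32e-05), lay at the 3-fold limit and was not called, but was called without E13 replicate 1 (1.68), without E18 replicate 2 (1.63) and without E18 replicate 4 (1.69). Recombined tissue was -1.96 ± 0.23 (SE, adjusted p = 6.12e-06) from Wk4, lost without recombined replicate 1 (-1.58), and 0.51 ± 0.23 from E13 (adjusted p = 0.115), where its lower array lay within the E13 range. Fgfr3 was in between, at 2575, 2499.9 and 2039 at E13, 5723, 5373, 5274 and 5674 at E18, 4029, 4088 and 3957 at Wk4 and 2887 and 2574 in recombined tissue. Its E18 arrays were above all others, with a difference from E13 of 1.14 ± 0.11 (SE, adjusted p = 6.13e-06), short of 3-fold. A second Fgfr3 probe set gave 0.48 there (limma adjusted p = 0.15). Fgfr1, the receptor of nephron progenitors, had every Wk4 array (6592, 5661 and 6053) below the lowest of the other 9 (10500.0), with Wk4 -0.80 ± 0.15 (SE, adjusted p = 0.0004) from E18 and no call in any comparison. A second Fgfr1 probe set gave -0.31 from E18 to Wk4 (limma adjusted p = 0.0808).

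**Figure D3:**
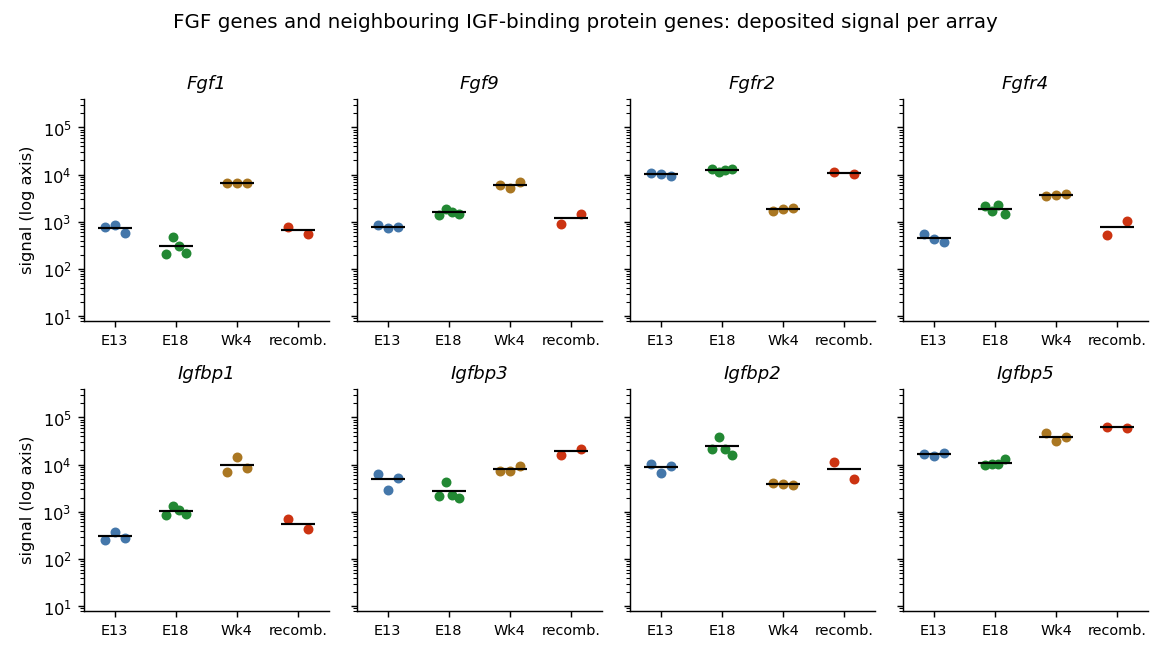
Deposited signal on each array (points, log axis) with the group mean (line) for Fgf1, Fgf9, Fgfr2, Fgfr4 and the neighbouring pairs Igfbp1 with Igfbp3 and Igfbp2 with Igfbp5, at E13 (n = 3), E18 (n = 4), Wk4 (n = 3) and in recombined tissue (n = 2). Fgf1 at Wk4 is 6532 to 6699.5 with every other array at most 839.

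Genes that act around the FGF receptors were read from lists chosen by pathway. Among the feedback and target genes of FGF signalling, 3 of 13 tested were called lower from E18 to Wk4 and none higher, beside 5.43% and 5.76% of all probe sets. In recombined tissue against E13, 2 were higher and none lower, beside 3.95% and 0.912%. Etv4, an ETS factor induced by FGF and GDNF, read 5538, 5116, 4194 and 2767 at E18 and 19.3, 86.9 and 164 at Wk4, a difference of -3.67 ± 0.39 (SE, adjusted p = 1.45e-06). Its recombined arrays differed from each other (728 and 2291). Etv5 was lower at Wk4 by the difference -1.75 ± 0.18 (SE, adjusted p = 1.21e-06) and Myc by -1.92 ± 0.20 (SE, adjusted p = 1.35e-06). Egr1 and Fos, immediate early genes, were the ones called higher in recombined tissue. Egr1 exceeded E13 by 2.70 ± 0.31 (SE, adjusted p = 1.55e-05). Fos passed the filter through its recombined arrays alone (1862 and 3332), with 305, 460.0 and 447 at E13. Of the 14 tested co-receptors and binding proteins, 2 were higher and 3 lower at Wk4 than at E18, beside the same 5.76% and 5.43%. Kl, the klotho co-receptor of FGF23, read 51.9, 110.0, 176 and 279 at E18 and 2417, 1967 and 2036 at Wk4, with 119 and 209 in recombined tissue, so that only the Wk4 arrays were above the dim range and let it pass the filter. Gpc3, a glypican that binds growth factors, differed from E18 to Wk4 by -3.15 ± 0.21 (SE, adjusted p = 1.06e-08) and was -1.79 ± 0.25 (SE, adjusted p = 8.68e-05) from E13 in recombined tissue, 1 of 2 calls of that list there. The other was Hspg2, the matrix proteoglycan perlecan (1.67 ± 0.38).

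Among the BMP and GDF ligands, both recombined arrays were below all kidney arrays for Bmp4 and Bmp7 and above them for Gdf10, Gdf15 and Bmp6. Over all probe sets 5.58% were below and 10.2% above, and Gdf10 passed the filter through the recombined arrays alone. Bmp4 and Bmp7 were called lower than at E18 and Wk4 but not E13, and Gdf15 higher than at E13 and E18 but not Wk4. Of the 13 genes, 10 were tested and 7 called between some groups, beside 24.6% of all probe sets. Bmp7, the survival factor of nephron progenitors, read 4408, 2888 and 2714 at E13, 6717, 7045, 6047 and 4726 at E18, 9352, 8659 and 9655 at Wk4 and 1298 and 1699.7 in recombined tissue. The groups did not overlap in any pair, and both recombined arrays were below all 10 kidney arrays. Recombined tissue was -1.85 ± 0.20 (SE, adjusted p = 8.78e-06) from E18 and -2.43 ± 0.21 (SE, adjusted p = 1.85e-07) from Wk4, both called. Against E13 the difference was -1.01 ± 0.21 (SE, adjusted p = 0.00192), 2.01-fold and so not called. In the kidney Bmp7 went up with age, by 0.84 ± 0.17 (SE, adjusted p = 0.00288) from E13 to E18 and 0.58 ± 0.17 (SE, adjusted p = 0.0103) from E18 to Wk4, each short of 3-fold. Over both steps the difference of 1.42 ± 0.18 (SE, adjusted p = 9.23e-06) was not called, and was called without E13 replicate 1 (1.63).

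Bmp4, which restrains ectopic budding, read 6328, 3318 and 4586 at E13, 6759.8, 7507, 7034 and 4627 at E18, 5424, 5494 and 5166 at Wk4 and 1045 and 1829 in recombined tissue. The kidney stages overlapped, and both recombined arrays lay below all 10. Recombined tissue was -2.00 ± 0.24 (SE, adjusted p = 3.07e-05) from E18 and -1.76 ± 0.26 (SE, adjusted p = 4.35e-05) from Wk4, the latter lost without recombined replicate 1 (-1.42). Against E13 it was -1.55 ± 0.26 (SE, adjusted p = 0.000378), just under 3-fold and not called. Of the 55 tested members, 2 (Bmp4 and Bmp7, 3.64%) had both recombined arrays below every kidney array. This share was no higher than the 5.58% of all probe sets and shows no leaning of the families.

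Bmp2, which limits branching in the collecting duct, read 2047, 1255 and 1805 at E13, 2612, 2665, 2702 and 2568 at E18, 1083, 1061 and 868 at Wk4 and 1352 and 3009.5 in recombined tissue. The E18 arrays were close together and above all E13 and Wk4 arrays, while the recombined arrays spread from below most E13 arrays to above all E18 arrays. Bmp2 was called in no comparison. Its difference from E18 to Wk4 was -1.19 ± 0.21 (SE, adjusted p = 0.000231), short of 3-fold, from E13 to E18 0.58 ± 0.21 (SE, adjusted p = 0.0708) and from E13 to Wk4 -0.61 ± 0.23 (SE, adjusted p = 0.0296). Recombined tissue was 0.86 ± 0.25 (SE, adjusted p = 0.0103) from Wk4, 0.25 ± 0.25 from E13 and -0.33 ± 0.24 from E18. The sign of the last 2 turned when 1 recombined array was left out (-0.26 against E13 without replicate 2, 0.17 against E18 without replicate 1). A second Bmp2 probe set gave 0.04 for recombined tissue against Wk4 (limma adjusted p = 0.906) and -0.17 against E13. Against E18 it gave -0.81 (limma adjusted p = 0.0247). For Wk4 it gave -0.21 against E13 (limma adjusted p = 0.456) and -0.85 against E18 (limma adjusted p = 0.0041).

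Bmp5, a close relative of Bmp7, fell with age, from 2011, 2445 and 1548 at E13 and 618, 571, 719 and 631 at E18 to 89.8, 141 and 166 at Wk4, and read 636 and 372 in recombined tissue. The 3 stages did not overlap, and 1 recombined array lay within the E18 range and 1 below it. Wk4 was -2.48 ± 0.21 (SE, adjusted p = 9.36e-08) from E13. A second Bmp5 probe set fell less, by -1.04 from E13 to Wk4 and -0.25 from E18 to Wk4 (limma adjusted p = 0.457). Bmp3, a BMP that signals little and opposes the others, read 255, 486 and 399 at E13, 2174, 1580.5, 2115 and 3508 at E18, 909, 763 and 1671 at Wk4 and 601 and 1019 in recombined tissue. It rose from E13 to E18 by 1.97 ± 0.27 (SE, adjusted p = 0.000101), from dim arrays, and its recombined arrays lay between the E13 and E18 arrays. Gdf11, which in the embryo is needed for outgrowth of the bud, read 6119, 6472 and 4924 at E13, 4744, 3684, 5394 and 4301 at E18, 1417, 1637 and 1560.2 at Wk4 and 2958 and 3879 in recombined tissue. Its Wk4 arrays were below all others, -1.75 ± 0.16 (SE, adjusted p = 2.65e-07) from E13, and its recombined arrays were between Wk4 and E13.

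Gdf10, the close relative of Bmp3 also called BMP3b, was dim on all 10 kidney arrays, at 31.7, 248 and 222 at E13, 427, 565, 469.9 and 220.4 at E18 and 67.9, 50.1 and 176 at Wk4, and read 1835 and 2568 in recombined tissue. Only the recombined arrays let it pass the filter, so no test of this difference is given. Gdf15, a ligand induced by cell stress and made by activated macrophages among other cells, read 30.9, 408 and 34.2 at E13, 201, 87, 350.1 and 276 at E18, 539, 925 and 672 at Wk4 and 1282 and 1277 in recombined tissue. Both recombined arrays were above all others, by 1.97 ± 0.35 (SE, adjusted p = 0.000713) against E13 and 1.66 ± 0.33 (SE, adjusted p = 0.00186) against E18. The latter was not called without E18 replicate 2 (1.51), under quantile normalization (1.51) or with median centring (1.56). Against Wk4 the difference was 0.68 ± 0.35 (SE, adjusted p = 0.123) and not called. Bmp6, not called, had both recombined arrays (2647 and 1585) above the kidney range of 691 to 1548.

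Of all tested members, Inhba differed most between recombined tissue and each kidney stage. Inhba encodes the beta A subunit, which pairs with itself to form activin A and with the product of Inha to form inhibin A. It read 1462, 1581 and 1769 at E13, 185, 252, 304 and 404 at E18, 27.1, 159 and 151 at Wk4 and 23666 and 12466 in recombined tissue. In the kidney it was highest at E13 and dim on every E18 and Wk4 array, and both recombined arrays were above all kidney arrays. The macrophage and matrix sums, which were also higher in recombined tissue, are given above, and their part in this result was not tested. Recombined tissue exceeded E13 by 3.22 ± 0.27 (SE, adjusted p = 9.64e-07), 9.33-fold. It exceeded E18 by 4.98 ± 0.26 and Wk4 by 5.53 ± 0.27 (adjusted p = 5.72e-10), and these comparisons share the recombined arrays. The fall from E13 to E18 was -1.76 ± 0.23 (SE, adjusted p = 6.22e-05), and within the second embryonic set it was -1.53 and not called. With the mean over its probe sets it was -0.89, and that from E13 to Wk4 -1.20, neither called. The fall from E13 to Wk4 was -2.31 ± 0.24 (SE, adjusted p = 1.05e-06), and from E18 to Wk4 the difference was -0.54 ± 0.23 (adjusted p = 0.0554). A second Inhba probe set with a mean signal of 740 differed less. It gave -0.01 from E13 to E18, and 0.93 for recombined tissue against E13 (adjusted p = 0.011), which is not 3-fold.

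Inhbb, the beta B subunit gene, read 25.8, 56.8 and 106 at E13, 178, 557, 233 and 329 at E18, 163, 338 and 385 at Wk4 and 1485 and 1393 in recombined tissue. All kidney arrays were dim, and both recombined arrays were above them. It passed the filter through those 2 arrays alone, so no test is given. Inha, whose product turns activins into inhibins, was not called, with 861 and 1551 in recombined tissue and 637 to 1124 in the kidneys.

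The TGF-beta ligand genes diverged from each other. Tgfb2, the isoform whose loss gives kidney defects in mice, read 4255, 3824 and 3757 at E13, 1231, 1838, 1326 and 1098 at E18, 699, 957 and 622 at Wk4 and 4092 and 4412 in recombined tissue. The recombined arrays lay with those of E13 (0.10 ± 0.20, adjusted p = 0.746) and above all E18 and Wk4 arrays. The fall from E13 to Wk4 was -2.04 ± 0.18 (SE, adjusted p = 1.43e-07), a call lost with the mean over its 2 probe sets (-1.56), and recombined tissue exceeded Wk4 by 2.15 ± 0.20 (SE, adjusted p = 4.81e-07). The second probe set gave -1.07 from E13 to Wk4 and, unlike the first, a difference above 0 from E18 to Wk4 (0.46, adjusted p = 0.102, against -0.67 ± 0.17). Tgfb3 read 1030.5, 1146 and 1002 at E13, 2017, 3002, 2069 and 1707 at E18, 903, 571 and 726 at Wk4 and 5397 and 2609.9 in recombined tissue. The lower of its recombined arrays lay within the E18 range and the higher above it. It exceeded E13 by 1.60 ± 0.27 (SE, adjusted p = 0.000434), lost without recombined replicate 1 (1.12) or E13 replicate 3 (1.57), and Wk4 by 2.02 ± 0.27 (SE, adjusted p = 1.95e-05), lost without recombined replicate 1 (1.53). Centring each array on its median also ended the call against E13 (1.41), as did quantile normalization (1.51) and the embryonic set as a covariate (1.48). Tgfb1, not called, read 1652, 599 and 928 at E13, 2027, 2830.0, 1909.5 and 1040.3 at E18, 723, 1066 and 1125 at Wk4 and 3087 and 1308 in recombined tissue, with overlap of the recombined arrays with each kidney stage except Wk4.

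**Figure D4:**
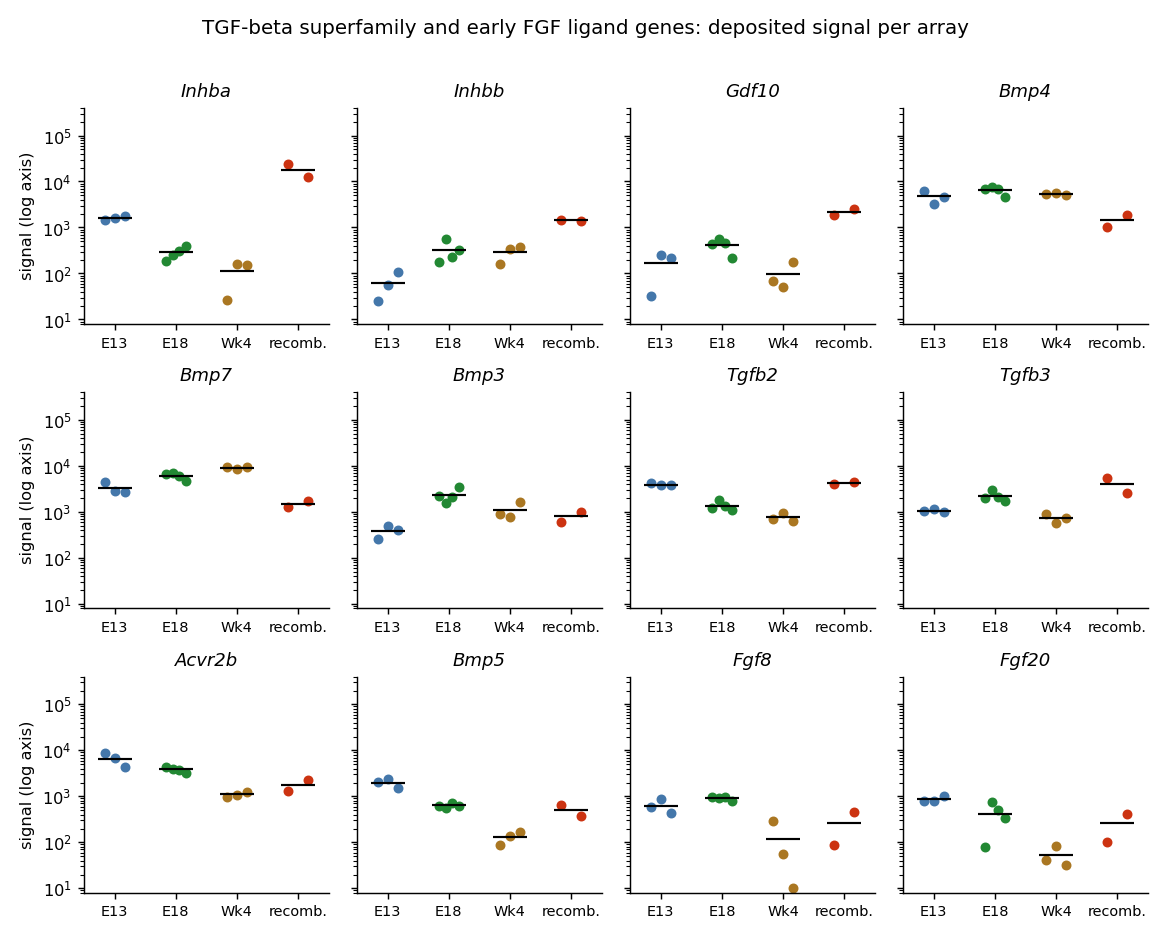
Deposited signal on each array (points, log axis) with the group mean (line) for 10 genes of the TGF-beta superfamily and for Fgf8 and Fgf20, at E13 (n = 3), E18 (n = 4), Wk4 (n = 3) and in recombined tissue (n = 2). Inhba is 12466 and 23666 in recombined tissue and at most 1769 in the kidneys, while Bmp4 and Bmp7 have both recombined arrays below all kidney arrays.

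All 9 receptor genes of the superfamily were tested and 2 were called between some groups, a share near the 24.6% of all probe sets. Acvr2b, a type II receptor for activins and GDF11, read 8726, 6759.9 and 4378 at E13, 4383, 3971, 3742 and 3266 at E18, 978, 1088 and 1269 at Wk4 and 1303 and 2289 in recombined tissue. Both recombined arrays were below all E13 and E18 arrays and above all Wk4 arrays. Wk4 was -2.27 ± 0.23 (SE, adjusted p = 6.77e-07) from E13. Recombined tissue was -1.73 ± 0.26 (SE, adjusted p = 0.000152) from E13, the sole member called lower there, and lost that call without E13 replicate 1 (-1.51) or recombined replicate 1 (-1.38). Acvr1c, the type I receptor ALK7, read 732, 630.2 and 821 at Wk4 and at most 30.3 on the other 9 arrays. Only the Wk4 arrays let it pass the filter, so no test is given.

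The other 7 receptor genes were not called. Tgfbr1, the type I receptor of the TGF-beta ligands, read 21919, 22249 and 22954 at E13, 14683, 13424, 16004 and 15226 at E18, 12397, 13648 and 14609.8 at Wk4 and 20004 and 16798 in recombined tissue. The E13 arrays were above all others, with E18 -0.59 ± 0.10 (SE, adjusted p = 0.000634) from E13. Acvr1, a type I receptor for BMPs and activins, had both recombined arrays (8683 and 8516) above the kidney range of 3118 to 7675. Other Acvr1 probe sets gave -0.03 and 0.46 for recombined tissue against Wk4 (limma adjusted p = 0.884 and 0.0975), where this one gave 0.52. Tgfbr3, the co-receptor betaglycan that also binds inhibin, read 1395 and 1804 in recombined tissue, 1214, 1411 and 1408 at Wk4 and between 614 and 833 on the embryonic arrays. A second Tgfbr3 probe set gave 0.10 from E18 to Wk4 (limma adjusted p = 0.758), where the first gave 0.72. Bmpr2, the type II BMP receptor, followed the embryonic sets rather than the stages. It read 2851, 8889 and 10131 at E13 and 2184, 3521, 4921 and 8972 at E18, with the first array of E13 and the first 3 of E18 below every array of Wk4 (7145, 6284 and 7523) and of recombined tissue (7865 and 11142). Bmpr1a, the type I BMP receptor, was between 3590.5 and 8150.1 on all arrays and Acvr2a, a type II activin receptor, between 1445 and 2414. Acvrl1, the endothelial type I receptor ALK1, read 1181, 614 and 663 at E13, 1937, 2090.2, 1623 and 1346 at E18, 1436, 1532 and 1690.4 at Wk4 and 1141 and 1182 in recombined tissue.

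Of the 4 secreted antagonists among the members, Grem1 and Nbl1 were called between some groups, beside 24.6% of all probe sets. So few genes give no result about the role. Grem1, the BMP antagonist gremlin that permits bud outgrowth, read 667, 271 and 1022 at E13, 634, 741, 753 and 945 at E18, 4649.6, 6094 and 4744 at Wk4 and 1504 and 433 in recombined tissue. The Wk4 arrays were above all others, and the recombined arrays lay on both sides of all but 1 of the embryonic arrays. The rise from E18 to Wk4 was 2.38 ± 0.31 (SE, adjusted p = 1.11e-05), and recombined tissue was -2.27 ± 0.37 (SE, adjusted p = 0.00011) from Wk4. Nbl1, which encodes the DAN antagonist of BMPs, read 906, 476 and 561 at E13, 1386, 996, 844 and 666 at E18, 1842, 2218 and 1758 at Wk4 and 3368 and 4389 in recombined tissue. The recombined arrays were above all others, by 2.19 ± 0.25 (SE, adjusted p = 1.85e-05) against E13 and by 1.76 ± 0.24 (SE, adjusted p = 8.61e-05) against E18, the latter lost without recombined replicate 2 (1.58). Nog, which encodes noggin, was not called and read 1311 and 1096 in recombined tissue, 1085, 982 and 1082 at E13, 464, 692, 779.8 and 691 at E18 and 489, 129 and 332 at Wk4. Fst, which encodes the activin-binding follistatin, read 3856, 3319 and 4330.0 at E13, 1879, 1049, 1444 and 1173 at E18, 2920.1, 2906 and 2921 at Wk4 and 2011 and 2279 in recombined tissue. Its E13 arrays were above all others, E18 was -1.33 ± 0.17 (SE, adjusted p = 4.65e-05) from E13 and recombined tissue -0.76 ± 0.20 (SE, adjusted p = 0.00897), both short of 3-fold. The recombined arrays of Fst were thus below all E13 and Wk4 arrays and above all E18 arrays. A second Fst probe set gave -0.67 for recombined tissue against E13 (limma adjusted p = 0.0615).

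Antagonists outside the family list were read in the same way, with 12 tested. Sostdc1, a BMP and WNT antagonist of kidney epithelium, read 2649, 2759.6 and 2489 at E13, 12566, 18186, 12577 and 12567 at E18, 23395, 25257 and 22137 at Wk4 and 946 and 978 in recombined tissue. It rose from E13 to E18 (2.28 ± 0.13 SE, adjusted p = 2.75e-08) and recombined tissue was below all kidney arrays, -3.51 ± 0.15 (SE, adjusted p = 1.73e-09) from E18. Bmper, an extracellular BMP modulator, read 13330.4, 15397 and 13184 at E13, 5897, 4679.6, 5200.2 and 6988 at E18, 26.5, 37.7 and 266 at Wk4 and 9856 and 6799.9 in recombined tissue. The fall from E18 to Wk4 was -4.01 ± 0.21 (SE, adjusted p = 9.09e-10), and the recombined arrays stayed within the embryonic range. Against E13, 2 of the 12 were called higher in recombined tissue, beside 3.95% of all probe sets, both matrix proteoglycans that bind TGF-beta: Dcn, or decorin (4.79 ± 0.24 SE, adjusted p = 9.13e-09), and Bgn, or biglycan (1.98 ± 0.26). The matrix sums given above were also higher in recombined tissue, and their part in this was not tested. Dcn also rose from E13 to E18 by 3.32 ± 0.20. At Wk4, where the matrix sums were lowest, Dcn was still 3.64 ± 0.22 from E13.

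Genes downstream of the receptors were read from 4 lists. Of 15 tested SMADs and regulators, limma called none in recombined tissue against E13, beside 4.86% of all probe sets. Of the 15, 4 had an unadjusted p under 0.05 and 3 an adjusted p under 0.05. At Wk4, 2 were lower than at E18 (5.43% of all probe sets were), Tgif1 (-1.70 ± 0.13) and Tgif2 (-2.63 ± 0.16), which encode repressors of SMAD2 and SMAD3. Of 12 BMP target genes, limma called 0 in recombined tissue against E13, beside the same 4.86%, with a median difference of -0.60 (all tested probe sets: 0.00). In that comparison 8 of the 12 had an unadjusted p under 0.05, and the same number an adjusted p under 0.05, all short of 3-fold. For both lists the share of all probe sets under these p limits was not counted. From E18 to Wk4, 2 of the 12 BMP targets were called lower and 0 higher, beside 5.43% and 5.76% of all probe sets. These were Hey1 (-2.96 ± 0.23) and Id3 (-1.88 ± 0.13). Of 19 TGF-beta target genes, 8 were higher and 0 lower in recombined tissue than at E13, with a median difference of 1.44, beside 3.95% of all probe sets called higher. The largest were Tnc, or tenascin C (4.78 ± 0.32 SE, adjusted p = 1.14e-07), Col1a1 (3.32 ± 0.33), Tagln (2.86 ± 0.31) and Col1a2 (2.65 ± 0.21). These are also genes of matrix-forming and contractile cells, whose list had 16 of 22 higher, and the part of that in the result was not tested. Of 17 genes for the latency and activation of TGF-beta, 6 were higher, beside the same 3.95%, led by Mmp9, a gelatinase that macrophages also make (4.86 ± 0.42), Ltbp4 (3.33 ± 0.29) and Thbs2 (3.09 ± 0.42).

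**Figure D5:**
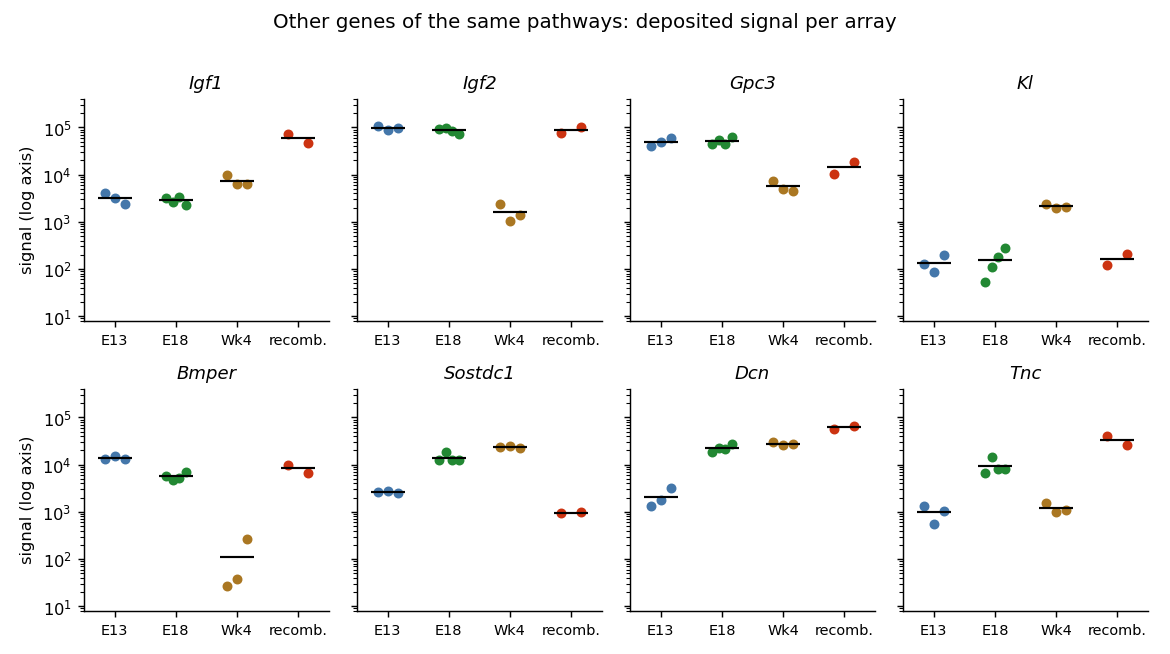
Deposited signal on each array (points, log axis) with the group mean (line) for 8 genes that are no members but act in the same pathways, at E13 (n = 3), E18 (n = 4), Wk4 (n = 3) and in recombined tissue (n = 2). Igf1 is highest in recombined tissue (73619 and 45976), Igf2 is lowest at Wk4, and Sostdc1 is lower in recombined tissue than on any kidney array.

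Of the 7 IGF-binding proteins, all were tested and 6 were called between some groups, beside 24.6% of all probe sets. Igfbp7, whose product binds IGFs weakly and lies in vessel walls, was bright and rose steeply between the embryonic stages. It read 4579, 3388 and 3934 at E13, 82577, 83158, 74314 and 58582 at E18, 157808, 125459 and 120312 at Wk4 and 31333 and 39547 in recombined tissue, with no overlap between any 2 groups. The rise from E13 to E18 was 4.14 ± 0.14 (SE, adjusted p = 1.93e-10), 17.6-fold, and that from E13 to Wk4 31.8-fold (4.99 ± 0.15). Recombined tissue was above E13 by 3.07 ± 0.17 (SE, adjusted p = 2.11e-08) and differed from Wk4 by -1.92 ± 0.17 (SE, adjusted p = 3.57e-07).

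Igfbp1 and Igfbp3 are adjacent genes on chromosome 14. Igfbp1, an acute carrier under insulin control, read 253, 375 and 276 at E13, 876, 1319.5, 1077 and 919 at E18, 6932, 14322 and 8652 at Wk4 and 698 and 425 in recombined tissue. Its Wk4 arrays were far above all others, with 2.90 ± 0.22 (SE, adjusted p = 5.78e-08) for Wk4 against E18 and -3.58 ± 0.27 (SE, adjusted p = 5.26e-08) for recombined tissue against Wk4. Igfbp3, the main carrier of IGFs in serum, read 6446, 2951 and 5334 at E13, 2180.1, 4379.7, 2328 and 1960.1 at E18, 7266, 7277 and 9495 at Wk4 and 16421 and 21994 in recombined tissue. Both recombined arrays were above all others, by 2.76 ± 0.30 (SE, adjusted p = 1.12e-05) against E18 and 1.96 ± 0.32 (SE, adjusted p = 0.000298) against E13, the latter short of 3-fold (1.57) with the mean over its 2 probe sets. Igfbp1 was thus highest at Wk4 and Igfbp3 in recombined tissue, the difference for which the pair was chosen. Whether the letters of their windows, given above, bear on these levels was not tested.

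Igfbp2 and Igfbp5 are adjacent on chromosome 9 and were highest in different groups. Igfbp2, a carrier abundant in fetal tissue, read 10443, 6636 and 9198 at E13, 21976, 37792, 21672 and 16114 at E18, 4159.8, 3820.1 and 3677 at Wk4 and 11238 and 5046 in recombined tissue. Its E18 arrays were above all others and its Wk4 arrays below all others. The fall from E18 to Wk4 was -2.50 ± 0.27 (SE, adjusted p = 2.05e-06). Recombined tissue was -1.59 ± 0.31 (SE, adjusted p = 0.00146) from E18, lost without E18 replicate 2 (-1.35) or recombined replicate 2 (-1.03). Igfbp5, which binds matrix as well as IGFs, read 17151, 15346 and 17995 at E13, 9944, 10404, 10538 and 13047 at E18, 46306, 32216 and 38303 at Wk4 and 63996 and 59090.1 in recombined tissue. The groups did not overlap, with E18 lowest and recombined tissue highest. Recombined tissue exceeded E18 by 2.46 ± 0.14 (SE, adjusted p = 3.81e-08) and E13 by 1.86 ± 0.15 (SE, adjusted p = 7.26e-07), and Wk4 exceeded E18 by 1.79 ± 0.13 (SE, adjusted p = 2.18e-08). The last call was lost under quantile normalization (1.58) and with the mean over its probe sets (1.54). Its 4 other probe sets differed in the same direction in these 3 comparisons.

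Igfbp6, whose product prefers IGF2, read 837, 390.2 and 757 at E13, 1183, 2077, 1363 and 1631 at E18, 597, 801 and 110.3 at Wk4 and 3093 and 2655 in recombined tissue. Recombined tissue was above all kidney arrays, by 1.79 ± 0.37 (SE, adjusted p = 0.00198) against E13, lost without E13 replicate 2 (1.56), and by 2.15 ± 0.37 (SE, adjusted p = 0.000186) against Wk4. Igfbp4 was the 1 binding protein not called. It read 11279, 3633 and 3845 at E13, 9504, 6837, 7166 and 3279 at E18, 6685, 8093 and 8404 at Wk4 and 4945 and 7232 in recombined tissue. As for Bmpr2, its embryonic arrays split by the 2 sets, here with E13 replicate 1 and E18 replicates 1 to 3 above the other 3. Against E13, then, Igfbp3, Igfbp5, Igfbp6 and Igfbp7 were the 4 of 7 called higher in recombined tissue and none was called lower, beside 3.95% and 0.912% of all probe sets.

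The ligands that these proteins carry moved too. Of 14 tested IGF ligands, receptors and proteases, 2 were higher and 0 lower in recombined tissue than at E13, beside 3.95% and 0.912% of all probe sets. Igf1 read 4179.6, 3133 and 2331 at E13, 3251, 2637, 3362 and 2317 at E18, 9685, 6200.2 and 6177 at Wk4 and 73619 and 45976 in recombined tissue. The recombined arrays were far above all others (4.10 ± 0.26 SE, adjusted p = 6.51e-08), and Igf1 is also made by macrophages, whose part in this was not tested. Htra1, a protease that cuts IGF-binding proteins, was the second (2.51 ± 0.21 SE, adjusted p = 8.58e-07). Igf2, the fetal IGF, read 106633, 86168 and 96165 at E13, 92489, 97756, 83190.0 and 71126 at E18, 2396, 1061 and 1383 at Wk4 and 77169 and 102809 in recombined tissue. The fall from E18 to Wk4 was -5.57 ± 0.19 (SE, adjusted p = 2.49e-11), and the recombined arrays were within the embryonic range. Ghr, the growth hormone receptor, was higher at Wk4 than at E18 by 2.30 ± 0.14. Igfals, which joins IGF and Igfbp3 in a circulating complex, was above the dim range only at Wk4 (1825, 716 and 1242).

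The rule also took 5 genes that carry a family's name without belonging to it. Tgfb1i1, which encodes the focal adhesion protein Hic-5, read 6484, 5036 and 5103 at E13, 10191, 10428, 9836 and 8445 at E18, 4193, 4172 and 3992 at Wk4 and 17151 and 17142 in recombined tissue. The recombined arrays were above all others, by 1.99 ± 0.14 (SE, adjusted p = 2.09e-08) against Wk4 and 1.59 ± 0.14 (SE, adjusted p = 1.2e-06) against E13. The latter lay at the 3-fold limit and was lost without E13 replicate 2 (1.53) or replicate 3 (1.54), with each array centred on its median (1.40) and with the embryonic set as a covariate (1.40). Bmp1, the procollagen C-proteinase, had its Wk4 arrays (1529, 1605 and 1482) below all others (2008 to 6231) and was not called. Bmp2k, a kinase gene, read 4688 and 4486 in recombined tissue and at most 4261 in the kidneys, and Tgfbrap1, whose product binds TGF-beta receptors, read 2675, 2348 and 2424 at Wk4 and at most 1463 elsewhere. Neither was called, nor was Fgfr1op2, between 2649.7 and 4854 on all arrays. A second Bmp2k probe set gave 0.16 for recombined tissue against E13 (limma adjusted p = 0.617), where the first gave 1.12. For Wk4 against E13 it gave -0.62, where the first gave 0.77.

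Over all roles, 13 of the 55 tested members had both recombined arrays above all 10 kidney arrays, beside 10.2% of all probe sets: Acvr1, Bmp2k, Bmp6, Gdf10, Gdf15, Igfbp3, Igfbp5, Igfbp6, Inhba, Inhbb, Nbl1, Nog and Tgfb1i1. Gdf10 and Inhbb passed the filter through the recombined arrays alone, so their place in this count was close to fixed by the filter. All 3 Wk4 arrays were above the other 9 for 9 members, beside 17.8%, and below them for 12, beside 24.6%. The members with Wk4 above include Acvr1c, which passed the filter through Wk4 alone. The 17 members that did not pass the filter were Fgf2 to Fgf7, Fgf11, Fgf17 to Fgf19, Fgf21 to Fgf23, Bmp8a, Bmp15, Gdf6 and Inhbc. Of these, 12 were above the 40th percentile on no array and 5 on 1 array. Fgf2, Fgf7 and Fgf18, ligands of mesenchymal cells, were among them: Fgf2 read 439 and 664 in recombined tissue and at most 419.8 in the kidneys, Fgf7 at most 544 on any array, and Fgf18 at most 605.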

How the data were processed

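Per the labels' protocols, total RNA was turned into biotinylated cRNA by the standard Affymetrix procedure. The authors deposited 1 linear intensity value per probe set and array. The submitters' processing notes name GCOS, with version and settings not given in the sources used here. Trimming 2% of values at each end gave a mean of 2500 on each array, so the arrays had been scaled to each other, which hides any change in RNA content per cell. Low signals have no bound of their own. Precision is limited by how many arrays there were.

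The 57 control probe sets were left out. To be kept, a probe set had to exceed the 40th percentile of its array on 2 arrays or more (22599 did, 8443 did not), and values were used as log2(signal + 271), 271 being the 25th percentile of all values. The scale of the deposited values was kept because the array medians spanned 0.27 on this scale. All 12 arrays entered 1 fit of limma 3.58.1 under R 4.3.3 (lmFit, then eBayes with trend, 8 residual degrees of freedom, two-sided, Benjamini-Hochberg over all kept probe sets), for 6 pairwise comparisons and an F-test. The scripts were tested on simulated data beforehand. Gene names came from the platform annotation: a single symbol was given for 20826 probe sets, several for 436 and none for 9780, and those with several were not used for names. Members had 107 probe sets, and 24 genes had more than 1. Promoters came from RefSeq (GRCr8) by gene ID.

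The members, gene lists and tests were chosen with earlier results of these data known. Named were all called members of a comparison up to 12, and otherwise the 6 highest and 6 lowest; Bmp7, Bmp2, Fgf8 and Inhba in each; per role the members with the highest mean signal and the widest range of group means; and up to 4 called genes of each pathway list. Others appear with levels or as counts. Replicate numbers did not pair the samples. The alternatives were the pseudocount, quantile normalization, median centring, the filter, the variance model, only the arrays compared, a 2-fold limit, the mean over probe sets, each array left out, the replicate number as a block and the embryonic set as a covariate; values within each embryonic set were added after seeing the data.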

Additional observations from a re-analysis of the deposited data

Results flagged for a closer look

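Fgf12 at E18 was the 1 result with a sample far from the rest of its group. E18 replicate 1 read 1585, below the other 3 E18 arrays at 2000 to 2040, with a gap of 0.92 of the group's range that is above Dixon's 95% limit for 4 samples. The E18 group, the only one of 4 arrays, was checked for 55 members, and chance flags about 1 in 20 such groups. Replicate 1 was still above all E13, Wk4 and recombined arrays of Fgf12.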

How the results depend on the processing

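Of the 67 called member differences, 27 were called in every one of the alternatives run and 40 were lost in at least 1; no called difference changed sign. With 4 times the pseudocount the counts of called members fell to 1 (E18 against E13), 6 (Wk4 against E18), 8 (Wk4 against E13), 4 (recombined against E13), 4 (recombined against E18), 9 (recombined against Wk4) and 15 (any group). Without a pseudocount they were 8 for E18 against E13 and 17 for Wk4 against E18. At a 2-fold limit they were 11, 18, 24, 20 and 17 for the first 5 of these comparisons, in that order. With the mean over a gene's probe sets, E18 against E13 gave 2. Leaving out each array in turn gave 4 to 5, 10 to 11, 14 to 15, 11 to 15, 9 to 9, 15 to 18 and, for any group, 28 to 30. The highest count for recombined tissue against E13 came without recombined replicate 2 and the lowest for recombined tissue against Wk4 (15) without recombined replicate 1.

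Same-numbered arrays of different groups correlated between -0.17 and 0.31 in their deviations, so the numbers were not taken as pairs. With the replicate number as a block the counts were 5, 11, 14, 10, 10 and 18, and 30 for any group. Lost with this block were the calls of recombined tissue for Tgfb3 (1.57) and Tgfb1i1 (1.56) against E13 and for Nbl1 (1.55) against E18. Within embryonic set 1 and set 2, E18 against E13 gave 4 and 3 calls, and 4 with the set as a covariate.

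Signs of uncalled differences turned in 7 cases. With the mean over probe sets Tgfbr1 gave 0.025 for Wk4 against E18 and 0.094 for recombined tissue against E13. Leaving out each array in turn gave Bmp2 -0.26 to 0.76 against E13 and -0.84 to 0.17 against E18 in recombined tissue, Fgfr1 -0.13 to 0.52 against E13, and Fgf8 -0.056 to 0.96 against Wk4. Median centring gave Fgfr3 -0.0061 against E13. The cause of these changes was not tested. Recombined tissue rests on 2 arrays, and signals under the 40th percentile limit what can be said of 17 untested members.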
